A study of Mus musculus with 9 samples.

Results

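The 10 genes described here encode the subunits of the transcription factor NF-kB and inhibitors and feedback regulators of the same pathway. They were taken by symbol: Nfkb1, Nfkb2, Rel, Rela and Relb for the subunits, and Nfkbia, Nfkbid, Nfkbiz, Bcl3 and Tnfaip3 for inhibitors, atypical inhibitors and feedback genes. All 10 were found among 37022 genes. The series measured newly made RNA in CD8+ T cells of the mouse, which kill infected and tumour cells, with 3 libraries in each of 3 groups: acutely stimulated, chronically stimulated, and chronically stimulated under MEK inhibition (labelled ChronicMEKi). MEK is the kinase that activates ERK in the MAP kinase cascade. All groups were fed 0.2 mM of the uridine analogue 5-ethynyl uridine for 30 minutes, and RNA that had taken it up was captured on beads and sequenced. The mouse strain and age, the manner and duration of stimulation, the MEK inhibitor and its dose are not stated in the labels. The labels do not say that replicates came from separate cultures or animals, so p-values measure the spread between these libraries, which may be technical.

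NF-kB is a family of dimers that inhibitor proteins hold in the cytoplasm. In T cells, antigen receptor signalling through protein kinase C theta activates the IkB kinase, the inhibitor is degraded, and dimers of RelA or c-Rel enter the nucleus. A slower, non-canonical arm processes the Nfkb2 product and releases RelB dimers. NF-kB induces several of its own inhibitors, so that transcription of Nfkbia and Tnfaip3 is commonly read as output of the pathway as well as a brake on it.

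Promoter sequences were available in the RefSeq promoter table (GRCm38.p6) for 7 members by symbol, as windows of 300 bases from 250 before to 50 after an annotated start. The 7 members had 12 windows. The stretches below are shown because they hold the kappaB consensus, the motif that NF-kB dimers bind, in 6 of these members, while the Rela window had no match. They lie at chr10:19015411-19015550 (minus strand) for Tnfaip3, chr12:55492648-55492707 (minus) for Nfkbia, chr7:19822736-19822785 (minus) for Bcl3, chr7:30422166-30422245 (plus) for Nfkbid, chr19:46304677-46304736 (plus) for Nfkb2, chr11:23771030-23771089 (minus) for Rel and chr19:5637481-5637540 (plus) for Rela. Each is written 5′ to 3′ on the strand of the gene, with motif matches on either strand in capitals: the kappaB consensus in all but Rela and, at the left end of Tnfaip3, the AP-1 motif TGANTCA. Where capitals run on in Nfkb2 and Rel, neighbouring matches overlap.
Tnfaip3: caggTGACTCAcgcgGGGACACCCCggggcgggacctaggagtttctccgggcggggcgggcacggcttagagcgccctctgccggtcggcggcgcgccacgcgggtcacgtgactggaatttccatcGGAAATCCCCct
Nfkbia: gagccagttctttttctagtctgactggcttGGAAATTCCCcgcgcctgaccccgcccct
Bcl3: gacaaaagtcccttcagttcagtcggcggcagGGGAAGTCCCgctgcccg
Nfkbid: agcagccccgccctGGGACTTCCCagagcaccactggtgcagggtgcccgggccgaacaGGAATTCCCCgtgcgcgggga
Nfkb2: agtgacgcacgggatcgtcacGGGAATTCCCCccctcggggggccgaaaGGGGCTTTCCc
Rel: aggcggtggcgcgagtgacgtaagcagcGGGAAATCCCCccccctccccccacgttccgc
Rela: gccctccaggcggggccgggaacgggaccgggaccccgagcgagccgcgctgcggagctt

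Of 7 motifs searched on both strands, the kappaB consensus was in 8 of the 12 member windows and in 8.46% of all 32851 windows of that length. The Nfkb2 windows from 46305445 and from 46305680 overlap and share a match. Counted by gene, the consensus was in 6 of the 7 members and in 9.55% of 27025 genes. The Tnfaip3 stretch held it at 125 to 116 bases and again at 12 to 3 bases before the start, and Nfkbia held it at 29 to 20 bases before the start. In Bcl3 the match lay just after the start, at bases 3 to 12. The AP-1 motif TGANTCA, which binds Fos and Jun dimers that MAP kinase signalling can induce, was in windows of Tnfaip3 and Nfkb2 and in 7.81% of all windows. The CRE motif TGACGTCA was in the Nfkbid window alone among the members (1.79% of all windows), and the ETS motif CCGGAAG was in none of the member windows (8.86% of all). Of the 3 other motifs, a looser kappaB pattern, GGG and CC around 5 free letters, was in all 12 member windows and in 50.8% of all windows, and the EGR motif GCGTGGGCG and the CArG box were in no member window, with 0.612% and 0.0639% of all windows. A match is a run of letters and was not tested as a binding site.

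Values are signal that the authors deposited per transcript, in a table read here as gene body and a second read as pause region, the stretch near the start where polymerase can halt. The signal was not treated here as a read count, and the number of reads behind it is not known. Taking 1 row for each gene, gene-body signal summed to between 4.86e+07 and 5.22e+07 per library. Ribosomal RNA-like rows took 19.1% to 22.3% of it in acute, 34.2% to 40.6% in chronic and 29.0% to 36.1% in MEK-inhibited libraries. Totals without these rows were run as an alternative scaling, and any other part of them in the results was not tested. Signals are given here after scaling the libraries by a trimmed mean of log ratios. Tests used limma on log2(signal + 5) over the 15942 genes whose deposited signal reached 50 in 3 or more libraries, with the Benjamini-Hochberg adjusted p under 0.05 counted as passing, and fold changes on this scale understate changes of weak genes. As a check of the labels, the ERK-induced phosphatase gene Dusp6 averaged 2505 ± 291.4 (SD, n = 3) under acute, 2395 ± 89.2 under chronic and 203.8 ± 9.69 under MEK-inhibited stimulation, a log2 change of -3.52 against chronic (limma adjusted p 5.23e-12). Etv5, another gene induced by ERK, averaged 101.9 ± 14.4, 695.5 ± 136.9 and 48.9 ± 24.7. All 9 CD8 T cell markers passed the filter, with summed signals of 49630 to 59620 in acute, 33130 to 37330 in chronic and 45810 to 49020 in MEK-inhibited libraries. These markers did not move alike. Cd8a lay at 3653 to 4340 in acute, 832 to 1171 in chronic and 2580 to 3064 in MEK-inhibited libraries. Cd3g lay at 1443 to 1599, 1515 to 1675 and 1397 to 1641 in the same order. B cell markers summed to 595.9 to 631.9, 204.0 to 242.8 and 188.5 to 471.9 in that order, with 3 of 6 passing the filter and Ms4a1 and Cd79b among those under 50 everywhere. Myeloid markers summed to 176.3 to 261.9, 164.6 to 206.8 and 106.5 to 238.5, with 2 of 6 passing and Lyz2, Itgam and Cd14 under 50. The CD4 T cell markers Cd4 and Zbtb7b both passed and summed to 1040 to 1367, 1054 to 1383 and 1729 to 2016, with opposite orders. Cd4 itself lay at 383 to 496 in acute, 144 to 344 in chronic and 101 to 141 in MEK-inhibited libraries, and Zbtb7b at 657 to 921, 910.5 to 1056 and 1588 to 1911. NK, erythroid and stromal markers summed to at most 60.25 in any library. The part of these cells in the results below was not tested, and in bulk samples fewer cells of a type and less RNA per cell cannot be told apart.

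In the comparison of chronic with acute stimulation, 6 of 10 members passed the test, 3 higher and 3 lower, where 33.9% of all genes tested did (18% higher, 15.9% lower). With library totals, and likewise on the deposited scale, 5 passed, 1 higher and 4 lower. With totals without ribosomal RNA-like rows 6 passed, 3 higher and 3 lower. Among the 5 subunits only Nfkb2 passed. All 5 of the inhibitor, atypical inhibitor and feedback genes passed, 2 higher (Tnfaip3 and Nfkbia) and 3 lower (Nfkbiz, Bcl3 and Nfkbid). With MEK inhibition against chronic, 4 members passed, 2 higher and 2 lower, where 17.6% of genes did (9.93% higher, 7.65% lower). None of the subunits passed, and of the 5 other members Bcl3 and Nfkbiz were higher and Tnfaip3 and Nfkbia lower. Between MEK-inhibited chronic and acute libraries, 2 members passed, Bcl3 higher and Nfkbiz lower, where 25.8% of genes did (14.4% higher, 11.5% lower). With library totals, and likewise on the deposited scale, 3 passed there, all of them lower. With totals without ribosomal RNA-like rows 3 passed there, 1 higher and 2 lower. The median log2 change of the 10 members was 0.16, -0.13 and -0.0044 in the 3 comparisons, and that of all genes tested -0.016, 0.04 and 0.0033. Each pair of comparisons shares a group of libraries, so they are not independent, and their values are given side by side for each gene. The groups did not overlap for 6 members in chronic against acute (44.2% of genes), for 4 in MEK-inhibited chronic against chronic (32.2%) and for 5 in MEK-inhibited chronic against acute (42%).

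**Figure D1:**
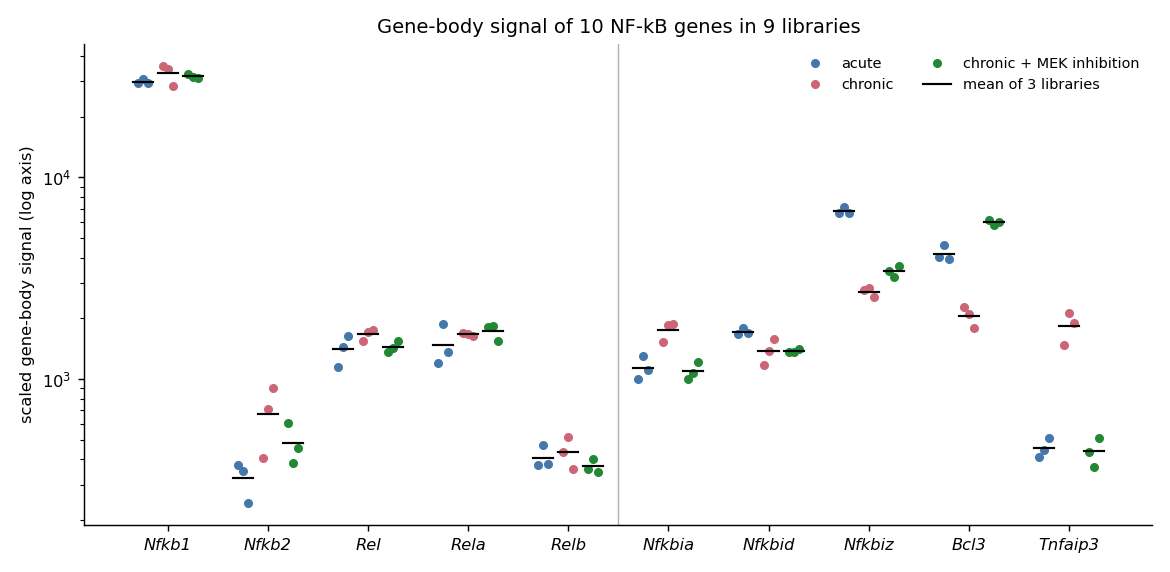
Scaled gene-body signal (log axis) of the 10 members, with a point for each of 3 libraries per group and a bar for their mean. Subunits are left of the grey line, and inhibitor, atypical inhibitor and feedback genes right of it. The 3 chronic points of Tnfaip3 (1472 to 2123) lie above all of its other points (368 to 512), and those of Bcl3 (1792 to 2265) below all of its others (3944 to 6132).

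Tnfaip3 encodes a ubiquitin-editing enzyme that shuts off signalling upstream of the IkB kinase. Its row (chromosome 10, 19000910 to 19015410, minus strand) had a signal of 412, 446 and 512 in acute replicates 1 to 3, 1472, 2123 and 1899 in chronic, and 437, 368 and 509 in MEK-inhibited libraries. All 3 chronic libraries stood above every other library, and the acute and MEK-inhibited ranges overlapped. The group means were 456.6 ± 51.2 (SD, n = 3), 1831 ± 330.3 and 438.3 ± 70.5. Tnfaip3 was 3.95-fold higher in chronic than in acute libraries (log2 1.98, SE 0.18, 95% interval 1.61 to 2.36, limma adjusted p 8.20e-08). It was 4.13-fold lower with MEK inhibition than without (log2 -2.05, interval -2.42 to -1.67, limma adjusted p 1.45e-07). MEK-inhibited and acute libraries differed by -0.06 on the log2 scale, with an interval of -0.44 to 0.31. All 6 annotated rows of the gene gave a log2 change between 1.75 and 2.01 for chronic against acute and between -2.30 and -1.79 for MEK inhibition against chronic.

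Nfkbia encodes IkB alpha, the inhibitor that binds RelA dimers and is degraded and remade with each round of activation. Its signal (chromosome 12, 55489410 to 55492647, minus strand) was 999, 1300 and 1110 in acute, 1529, 1846 and 1869 in chronic and 1001, 1068 and 1209 in MEK-inhibited libraries. The chronic libraries did not overlap with either other group, and the acute and MEK-inhibited ranges did. Nfkbia was 1.54-fold higher in chronic than in acute libraries (log2 0.62, SE 0.14, limma adjusted p 0.00167) and 1.60-fold lower with MEK inhibition (log2 -0.67, limma adjusted p 0.00165). MEK-inhibited against acute gave -0.05, with an interval of -0.34 to 0.24. The rise in chronic against acute did not pass when library totals (log2 0.13, limma adjusted p 0.464) or the deposited scale (0.15, limma adjusted p 0.409) replaced the scaling. It passed with totals without ribosomal RNA-like rows (0.46, limma adjusted p 0.00897). With library totals MEK-inhibited against acute became -0.44 (limma adjusted p 0.0217), and with totals without ribosomal RNA-like rows -0.22 (limma adjusted p 0.233). The fall with MEK inhibition against chronic kept its call in all 23 alternatives.

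Bcl3 encodes an atypical IkB protein of the nucleus that binds the homodimers of the Nfkb1 and Nfkb2 products. Its signal (chromosome 7, 19808462 to 19822770, minus strand) was 4007, 4618 and 3944 in acute, 2265, 2095 and 1792 in chronic and 6132, 5773 and 6019 in MEK-inhibited libraries. The 3 groups did not overlap: chronic was lowest, acute between and MEK-inhibited highest. Bcl3 was 2.04-fold lower in chronic than in acute libraries (log2 -1.03, SE 0.10, limma adjusted p 3.17e-07). It was 2.92-fold higher with MEK inhibition than without (log2 1.55, SE 0.10, limma adjusted p 4.90e-09). MEK-inhibited libraries stood 1.43-fold above acute ones (log2 0.51, limma adjusted p 0.00104). That last difference did not pass with library totals (log2 0.13, limma adjusted p 0.484), the deposited scale (0.17), or no filter with the scaling also taken over all genes with signal (0.45, limma adjusted p 0.0602). It passed with totals without ribosomal RNA-like rows (0.35, limma adjusted p 0.0197). Bcl3 overlaps Gm16175 and Gm16174 on the opposite strand, and the use of strand in counting is not stated, so its value may include them.

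Nfkbiz encodes another nuclear atypical IkB protein, which can act as a coactivator for a subset of NF-kB targets. Its signal (chromosome 16, 55811375 to 55838899, minus strand) was 6658, 7105 and 6659 in acute, 2770, 2816 and 2564 in chronic and 3445, 3220 and 3646 in MEK-inhibited libraries. Acute was highest, chronic lowest and MEK-inhibited between, with no overlap. Nfkbiz was 2.50-fold lower in chronic than in acute libraries (log2 -1.32, SE 0.09, limma adjusted p 2.07e-09) and 1.26-fold higher with MEK inhibition than without (log2 0.34, interval 0.15 to 0.53, limma adjusted p 0.0129). Against acute it was 1.98-fold lower (log2 -0.99, limma adjusted p 1.80e-07). The rise with MEK inhibition did not pass without MEK-inhibited replicate 1 (log2 0.28, limma adjusted p 0.11) or 3 (0.30, limma adjusted p 0.0717), or when the trimmed mean was taken over all genes, with the filter (0.27, limma adjusted p 0.195) and without it (0.27, limma adjusted p 0.358).

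The Nfkbiz rows did not move together, an observation made after their values were seen. The row Nfkbiz-204, the 10.8 kb stretch toward the 3′ end, had 6333, 6658 and 6451 in acute, 2316, 2476 and 2204 in chronic and 3184, 2948 and 3415 in MEK-inhibited libraries. The row Nfkbiz-205, a 14.2 kb processed transcript over the upstream part of the gene (55824666 to 55838899), had 68.5, 149.5 and 88.3 in acute, 274, 189.9 and 162 in chronic and 110, 104 and 79.2 in MEK-inhibited libraries. These rows lie within Nfkbiz-201 and share its signal. In Nfkbiz-205 chronic was highest, against the order of the gene as a whole, and its signal ranged from 1.03% to 2.10% of that of Nfkbiz-201 in acute, 6.31% to 9.89% in chronic and 2.17% to 3.24% in MEK-inhibited libraries. The shares were 1.49% ± 0.56 (SD, n = 3), 7.65% ± 1.95 and 2.87% ± 0.60, and each of the 3 pairs of groups was apart. The two-sided exact permutation test gave 0.1 for each pair, its lowest possible p with groups of 3, and 0.1 after adjustment over the 3. The row's own log2 change was 1.03 for chronic against acute and -1.03 for MEK inhibition against chronic.

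**Figure D2:**
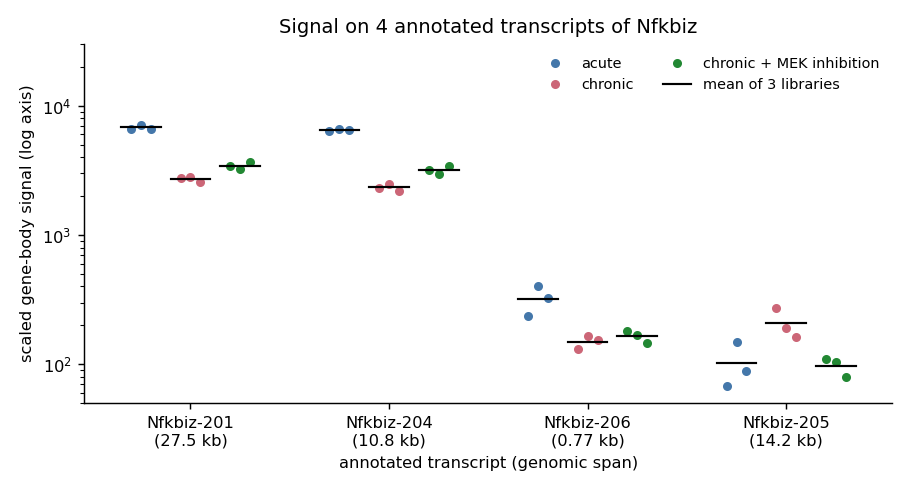
Scaled gene-body signal (log axis) of 4 annotated Nfkbiz rows with their spans in kb, with a point for each library and a bar for the mean. Nfkbiz-205 is highest in chronic (162 to 274), whereas Nfkbiz-201 and Nfkbiz-204 are highest in acute.

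Nfkbid encodes a nuclear IkB protein that modulates the activity of the Nfkb1 product. Its signal (chromosome 7, 30421732 to 30428746, plus strand) was 1665, 1798 and 1699 in acute, 1177, 1379 and 1582 in chronic and 1364, 1360 and 1405 in MEK-inhibited libraries. Acute libraries were above both other groups, which overlapped. Nfkbid was 1.26-fold lower in chronic than in acute libraries (log2 -0.33, SE 0.12, interval -0.59 to -0.07, limma adjusted p 0.0483). It differed by 0.0076 with MEK inhibition (interval -0.25 to 0.27), and the log2 difference against acute was -0.32 (limma adjusted p 0.0658). The call in chronic against acute was lost in 13 of 23 alternatives, among them leaving out any library but chronic replicate 3, with log2 changes from -0.36 to -0.22. The fall was larger with library totals (-0.82, limma adjusted p 3.67e-05) and with totals without ribosomal RNA-like rows (-0.49, limma adjusted p 0.00363). MEK-inhibited against acute gained a call in 8 of 23 alternatives, with library totals at -0.70 (limma adjusted p 0.000345).

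Nfkb2, the subunit gene that passed the test, encodes the precursor of the non-canonical arm. Its signal (chromosome 19, 46304320 to 46312385, plus strand) was 377, 350.1 and 243 in acute, 407, 712 and 904 in chronic and 609.6, 383 and 455 in MEK-inhibited libraries. Chronic replicate 1 was only just above the highest acute library, and chronic and MEK-inhibited libraries overlapped. Nfkb2 was higher in chronic than in acute libraries (log2 1.00, SE 0.27, limma adjusted p 0.00852), and MEK inhibition gave -0.43 (interval -1.01 to 0.15, limma adjusted p 0.332). MEK-inhibited against acute gave 0.57 (limma adjusted p 0.144). Without acute replicate 3 or chronic replicate 3 the adjusted p was 0.0504, with log2 0.80 and 0.75, and without chronic replicate 1 MEK inhibition gave -0.76 (limma adjusted p 0.0485). With library totals the rise was 0.51 (limma adjusted p 0.0895), and with the deposited scale 0.53. With totals without ribosomal RNA-like rows it was 0.84 (limma adjusted p 0.0135). Nfkb2 overlaps AC114539.1 and Psd on the opposite strand.

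Nfkb1 encodes the precursor of the subunit that pairs with RelA or c-Rel. Over its long gene (chromosome 3, 135584655 to 135691547, minus strand) its signal was 29368, 30709 and 29309 in acute, 35657, 34217 and 28394 in chronic and 32574, 31289 and 30893 in MEK-inhibited libraries. Chronic replicate 3 was the lowest of all 9, so that the groups overlapped for chronic. Nfkb1 changed by 0.13 on the log2 scale in chronic against acute (interval -0.06 to 0.32, limma adjusted p 0.282), by -0.05 with MEK inhibition (interval -0.23 to 0.14) and by 0.08 against acute (interval -0.10 to 0.27). Its direction turned with the scaling: library totals gave -0.36 (limma adjusted p 0.0319) and the deposited scale -0.34 (limma adjusted p 0.0364), and without chronic replicate 3 it was 0.23 (limma adjusted p 0.00344). Totals without ribosomal RNA-like rows gave -0.03 (limma adjusted p 0.844). The 10 annotated rows of Nfkb1 gave log2 changes from -0.31 to 0.26 in chronic against acute and from -0.13 to 0.505 with MEK inhibition against chronic. The gene overlaps Gm43430 on its own strand.

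Rel encodes c-Rel, the subunit most tied to lymphocyte activation. Its signal (chromosome 11, 23736847 to 23770970, minus strand) was 1145, 1451 and 1641 in acute, 1543, 1720 and 1760.3 in chronic and 1361, 1419 and 1547 in MEK-inhibited libraries, and the groups overlapped. Its log2 change was 0.26 for chronic against acute (interval -0.02 to 0.54), -0.21 for MEK inhibition against chronic (-0.50 to 0.07) and 0.04 for MEK inhibition against acute (-0.24 to 0.33). Rela, the main activating subunit, had 1201, 1881 and 1369 in acute, 1694, 1674 and 1639 in chronic and 1822, 1841 and 1543 in MEK-inhibited libraries, with acute replicate 2 the highest of all 9. Its log2 changes were 0.20, 0.05 and 0.25, with intervals of -0.11 to 0.50, -0.25 to 0.35 and -0.06 to 0.55. The 6 annotated rows of Rela ranged from -0.37 to 0.57 in chronic against acute and from -0.50 to 0.38 with MEK inhibition against chronic. Without acute replicate 2 Rela was higher than in acute, by 0.39 in chronic (limma adjusted p 0.0249) and 0.38 in MEK-inhibited libraries (limma adjusted p 0.0356). Relb, the subunit of the non-canonical dimer, had 377, 471 and 378 in acute, 435, 516 and 357 in chronic and 359, 404 and 348 in MEK-inhibited libraries, the weakest signal of the subunits per length. Its log2 changes were 0.09, -0.22 and -0.13, with intervals of -0.34 to 0.52, -0.65 to 0.21 and -0.57 to 0.30. For Rel, Rela and Relb a p that misses the threshold does not show that the groups were alike, and chronic against acute turned to negative uncalled values with library totals, at -0.23, -0.29 and -0.40. With totals without ribosomal RNA-like rows these values were 0.10, 0.04 and -0.07, also uncalled.

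**Figure D3:**
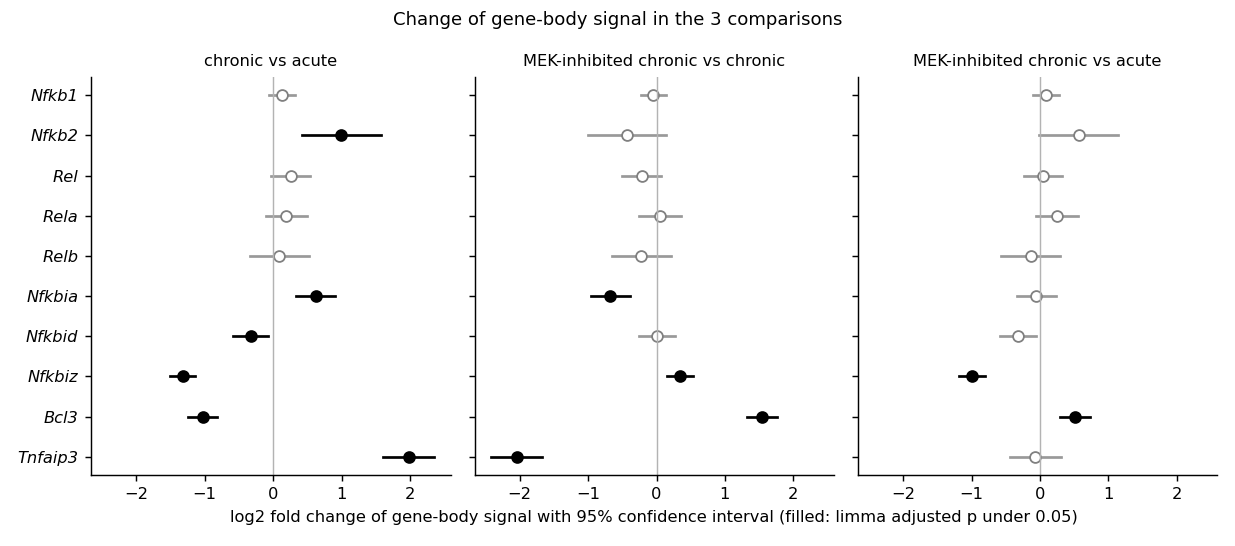
Log2 fold change of gene-body signal with its 95% confidence interval for each member in the 3 comparisons; filled points have a limma adjusted p under 0.05. In chronic against acute, 6 points are filled, in MEK-inhibited chronic against chronic 4 (Nfkbia, Nfkbiz, Bcl3 and Tnfaip3), and in MEK-inhibited chronic against acute 2.

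The level per length gives an order of the members within each group, as scaled signal per kb of annotated span. In acute libraries Nfkbia was highest at 351 ± 47 (SD, n = 3), then Bcl3 at 293 ± 26, which overlapped with it, and Nfkb1 at 279 ± 7.41, which overlapped with Bcl3. Nfkbiz (247 ± 9.38) and Nfkbid (245 ± 9.88) overlapped with each other and were apart from Rela (139 ± 33.3). Rel, Nfkb2 and Tnfaip3 lay at 41.4, 40.1 and 31.5, each overlapping the next, and Relb was lowest at 17.6 ± 2.33. In chronic libraries Nfkbia stood at 539.8 ± 58.7, Nfkb1 at 306 ± 36 and Nfkbid at 197 ± 28.8, none overlapping the next. Rela (157), Bcl3 (143), Tnfaip3 (126), Nfkbiz (98.7) and Nfkb2 (83.6) each overlapped the next in that order, and Nfkb2 overlapped Rel (49.1). Tnfaip3 thus stood at rank 6 in place of 9 in acute libraries, and Nfkbiz at rank 7 in place of 4. Most Nfkbiz signal lay in the 10.8 kb of Nfkbiz-204, while its span here was the 27.5 kb of Nfkbiz-201. Nfkbiz-204 averaged 6481 in acute, 2332 in chronic and 3183 in MEK-inhibited libraries, where Nfkbiz-201 averaged 6807, 2716 and 3437. The per-kb level and rank of Nfkbiz therefore depend on the span taken. With MEK inhibition Bcl3 led at 418 ± 12.8, ahead of Nfkbia (337 ± 32.9) and Nfkb1 (295 ± 8.22), and no neighbours overlapped in that group.

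Ratios to Rela within a library do not depend on how libraries were scaled. Of 9 ratios, 4 did not overlap between chronic and acute libraries (Nfkbia, Nfkbiz, Tnfaip3 and Bcl3), against 33% of all tested genes' ratios to Rela. The same 4 did not overlap between MEK-inhibited and chronic libraries (background 28.3%), and 3 (Relb, Nfkbid and Nfkbiz) between MEK-inhibited and acute ones (background 28.1%). The Tnfaip3 to Rela log2 ratio was -1.67 in acute, 0.12 in chronic and -1.98 in MEK-inhibited libraries, and that of Bcl3 was 1.52, 0.29 and 1.79. In both comparisons with chronic libraries, the exact two-sided permutation p of these 2 ratios was 0.1, the smallest this design gives, and 0.246 after Benjamini-Hochberg adjustment over 27 ratios. Between MEK-inhibited and acute libraries both overlapped, with an exact p of 0.3 for Tnfaip3 (adjusted 0.405) and 0.2 for Bcl3 (adjusted 0.338).

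Pause-region values are those of the row kept for the gene body, so signal at other annotated starts of a gene was not taken. In the pause region, 6 members passed the filter of 50 in 3 libraries: Nfkb1, Rel, Rela, Nfkbia, Nfkbid and Bcl3. Bcl3 was the 1 member called there in chronic against acute, lower, where 10.7% of 7678 genes were called (5.37% higher, 5.35% lower). Its pause-region signal was 136, 167 and 149 in acute, 55.4, 80.6 and 105 in chronic and 266, 207 and 271 in MEK-inhibited libraries, and the groups did not overlap. The log2 change was -0.91 (SE 0.30, limma adjusted p 0.0457) in chronic against acute and 1.60 (limma adjusted p 0.00117) with MEK inhibition, where 1 of 6 members passed and 3% of genes did (1.56% higher, 1.43% lower). The first call was lost when any library but chronic replicate 3 was left out. Against acute the change was 0.69 (limma adjusted p 0.185), and 0 of 6 members passed by limma, 3 having an unadjusted p under 0.05, where 5.95% of genes passed (3.44% higher, 2.51% lower). Nfkbia had 200, 277 and 221 in acute, 238, 232 and 302 in chronic and 207, 109 and 140 in MEK-inhibited libraries, with a log2 change of -0.78 with MEK inhibition (limma adjusted p 0.13).

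**Figure D4:**
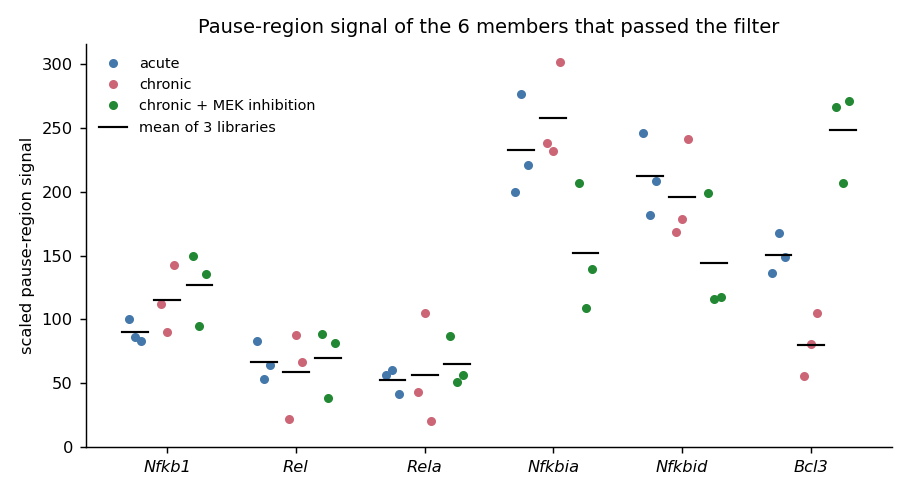
Scaled pause-region signal of the 6 members that passed the filter, with a point for each library and a bar for the mean of 3. The MEK-inhibited libraries of Bcl3 (207 to 271) lie above its acute (136 to 167) and chronic (55.4 to 105) libraries.

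The ratio of pause region to gene body was also tested, as the difference of log2(signal + 5) in each library. None of the 6 members passed by limma in any comparison, nor had any an unadjusted p under 0.05, where 0% of 7413 genes passed and 749, 394 and 591 of them had an unadjusted p under 0.05 in the 3 comparisons. Bcl3 gave -4.83, -4.75 and -4.68 in acute, -5.23, -4.62 and -4.03 in chronic and -4.50, -4.77 and -4.45 in MEK-inhibited libraries, so that both of its regions were low in chronic and high with MEK inhibition while this difference overlapped in all 3 groups. The log2 change of the difference was 0.12 (interval -0.57 to 0.82) in chronic against acute and 0.06 (interval -0.64 to 0.75) with MEK inhibition.

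Across the 9 libraries Tnfaip3 and Nfkbia varied together (Pearson r 0.945) and Tnfaip3 and Bcl3 in opposite directions (r -0.933). These are descriptions over libraries that share the 3 groups, with no p. The genes most like each member over the 9 libraries were Ybx3 (r 0.994) and Serpinb9 (0.987) for Tnfaip3, Ccl3 (0.978) and Mri1 (0.977) for Nfkbia, Ptprj (0.994) and Tmem131l (0.993) for Bcl3, and Igfbp4 (0.994) and St8sia1 (0.994) for Nfkbiz. For the other members they were Kcna3 (0.964) and Leprotl1 (0.962) for Nfkbid, Hivep3 (0.971) and Il20rb (0.961) for Nfkb1, Mindy1 (0.952) and Gzmc (0.937) for Nfkb2, Lrrc59 (0.940) for Rel, Tmem259 (0.974) and Efhd2 (0.952) for Rela, and Ccdc122 (0.927) and Acvrl1 (0.919) for Relb. They were picked from 15942 genes over libraries of 3 groups.

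Of the wider pathway, 3 lists, written with earlier results of these data known, are described by counts. Of genes listed as activators of the canonical or non-canonical arm, 19 of 20 were tested. The list also holds Traf2, Traf3 and Birc2, which can restrain the non-canonical arm, so its counts mix both roles. In chronic against acute 10 were lower, Traf3 and Birc2 among them, and 3 higher, where 15.9% of all genes were lower and 18% higher. The median log2 change of the list was -0.39, and that of all genes -0.016. Prkcq, which encodes protein kinase C theta, was lower (log2 change -1.13, limma adjusted p 4.48e-09). Malt1, a protease of antigen receptor signalling, was higher (0.61, 3.94e-05), as was Traf2, an adaptor of tumour necrosis factor receptors (0.36, 0.00511). With MEK inhibition against chronic 5 were higher and 1 lower (9.93% and 7.65% of all genes), and the median was 0.22, that of all genes 0.04. Rnf31, a linear ubiquitin ligase whose row overlaps Irf9, was higher (log2 change 0.72, limma adjusted p 0.000407), and Malt1 was lower (-0.37, 0.00729). Against acute 1 was higher (Traf2, 0.30) and 4 lower (14.4% and 11.5% of all genes), with Prkcq at -0.97 and Traf6, a ubiquitin ligase that activates the pathway, at -0.76, and the median was -0.03. Prkcq overlaps Gm36932 and Gm37766 on its own strand.

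Of 14 other inhibitors and feedback genes, all tested, 4 were higher and 4 lower in chronic against acute (18% and 15.9% of all genes), with a median of 0.03. N4bp1, a suppressor of cytokine output, was higher (log2 change 0.92, limma adjusted p 5.00e-07), as was Tax1bp1, a partner of the Tnfaip3 product (0.79, 1.46e-05). Cyld, a deubiquitinase that restrains the pathway, was lower (-0.82, 2.59e-06), as was Peli1, a ubiquitin ligase (-0.67, 3.41e-06). With MEK inhibition 1 was higher (Cyld, 0.39) and 4 lower (9.93% and 7.65% of all genes), with Tax1bp1 at -1.26 (limma adjusted p 1.22e-07) and Peli1 at -0.46 (0.000442), and the median was -0.13. Against acute 2 were higher (N4bp1, 0.61, and Otud7b, a deubiquitinase, 0.44) and 4 lower (14.4% and 11.5% of all genes), with Peli1 at -1.12 and Cyld at -0.43, and the median was 0.03.

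Of 25 target genes known from lymphocytes, 22 were tested. The part of NF-kB in the changes of these genes was not tested. In chronic against acute 10 were higher and 6 lower, where 18% and 15.9% of all genes were, and the median was 0.47 against -0.016 for all genes. With MEK inhibition against chronic 4 were higher and 13 lower, where 9.93% and 7.65% of all genes were, and the median was -0.62 against 0.04. Tnfrsf9, a costimulatory receptor, averaged 2975 ± 192.5 (SD, n = 3) with acute stimulation, 23190 ± 849.6 with chronic stimulation and 10410 ± 204.5 with MEK inhibition. Irf4, a transcription factor of lymphocyte activation, averaged 9452 ± 367.9, 42490 ± 3213 and 15340 ± 310.1 in the same order, and both rose in chronic against acute, with log2 changes of 2.96 (limma adjusted p 5.47e-14) and 2.17 (1.14e-12). Ltb, which encodes lymphotoxin beta, was lower (-3.86, 1.97e-10), as was Cflar, an inhibitor of cell death (-0.71, 2.51e-06). With MEK inhibition Irf4 was lower (-1.47, 5.74e-10), as was Csf2, which encodes a growth factor for myeloid cells (-3.55, 1.10e-08). Ltb was then higher (2.52, 8.79e-08), as was Irf1, a factor of the interferon response (1.00, 3.67e-06). Against acute 8 were higher and 7 lower (14.4% and 11.5% of all genes), with a median of 0.05 against 0.0033 for all genes: Tnfrsf9 (1.81) and Tnfrsf4, another costimulatory receptor (1.52), were higher and Cd69, an early activation marker (-2.56), and Cflar (-0.93) lower.

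**Figure D5:**
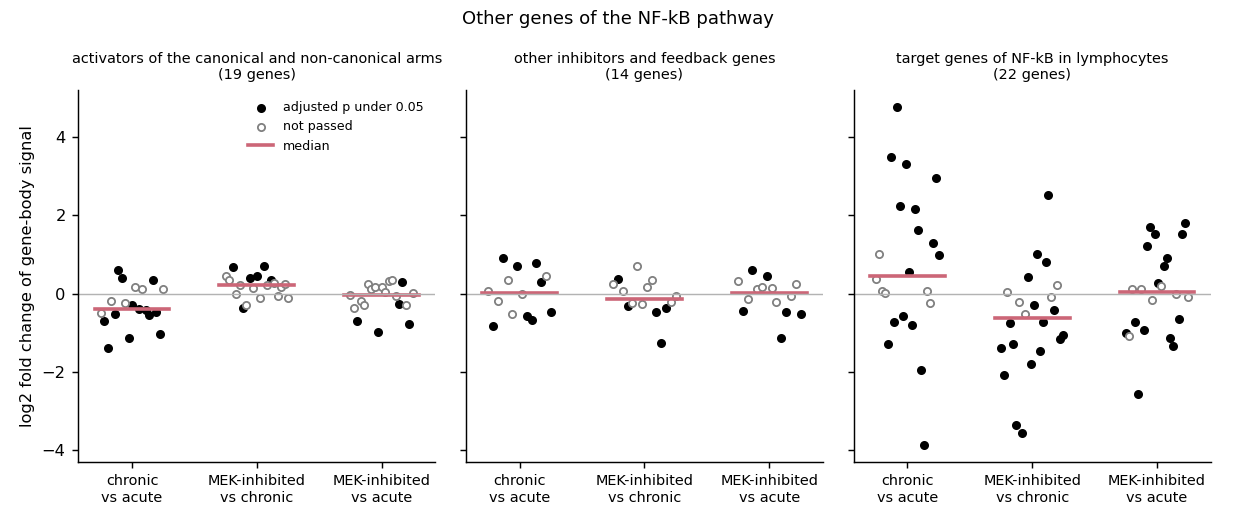
Log2 fold change of gene-body signal for the tested genes of the 3 lists (19, 14 and 22 genes) in each comparison, filled where the limma adjusted p was under 0.05, with a red line at the median. Target genes have a median of 0.47 in chronic against acute and -0.62 in MEK-inhibited chronic against chronic.

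Scaling sets the overall balance of directions. In chronic against acute, 2875 genes were higher and 2528 lower, against 1096 and 6846 with library totals, which moved the median gene by -0.49 on the log2 scale. For MEK-inhibited chronic against chronic the median gene moved by 0.11, and for MEK-inhibited chronic against acute by -0.38. Tnfaip3 was higher and Bcl3 and Nfkbiz lower in chronic than in acute libraries under every scaling run.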

How the data were processed

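Nascent RNA of mouse CD8+ T cells was measured in 9 libraries, 3 per group by their labels. The values that the authors deposited are signal per transcript, in 2 tables of 118482 rows (no column lay outside the 9 libraries: 0 unmapped). Every value was a whole multiple (relative tolerance 0.0001) of a step of 0.764 to 1.06 that differed between libraries, and 4 steps were about as frequent as 1, so the signal was not treated as read counts. The submitters' processing notes list FastQC 0.12.0, Trim Galore 0.6.10, STAR 2.7.0a, SAMtools 1.19.2, deepTools 0.1.9, R 4.1.2 and mm10, with no role or order. Region coordinates, annotation and use of strand are not given in the sources used here. Rows were matched to GENCODE M21 (GRCm38) by transcript identifier, 117346 with and 383 without their version, and per gene the row whose mean gene-body signal was largest was kept. Libraries were scaled by a trimmed mean of log ratios (30% of ratios, 5% of levels trimmed) over genes passing the filter of 50 in 3 libraries. Taking it over all genes instead was tried first and is kept as an alternative chosen after seeing the data. One limma model (limma 3.58.1, R 4.3.3, with trend and robust moderation) was fitted to log2(signal + 5) of all 9 libraries and was tested on simulated data. Python 3.11.15 with pandas 2.3.3 mapped rows to genes, and matplotlib 3.10.9 drew the figures. Ratios to Rela and the Nfkbiz rows were compared by exact permutation tests. The members and lists were chosen with earlier results of these data known. All 10 members are named. Of each list, the up to 2 highest-ranked genes in each direction by adjusted p are named, and per member the 2 tested genes with the highest correlation. Some genes that these rules take are not reported here.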

Additional observations from a re-analysis of the deposited data

How the results depend on the processing

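Over 30 member results (10 genes in 3 comparisons of the gene body) and 23 alternatives each, 647 of 690 values kept their direction where called and their side of the threshold, 27 lost a call, 14 gained one and 2 reversed. The reversed values were those of Nfkb1 in chronic against acute, -0.36 with library totals and -0.34 on the deposited scale. Tnfaip3 and Bcl3 in chronic against acute and in MEK-inhibited against chronic kept their calls in all 23. So did Nfkbiz in chronic against acute and in MEK-inhibited against acute, and Nfkbia in MEK-inhibited against chronic. The count of members called in the gene body for MEK-inhibited against acute was 2. It was 1 with no filter and the scaling then over all genes with signal, 2 with no filter and the scaling kept, and 3 with library totals, the deposited scale, totals without ribosomal RNA-like rows, a filter at 200 (2 with the scaling kept), only the 2 groups compared or the mean over all rows. Both settings that keep the scaling were added after seeing the data. In the pause region the count for chronic against acute was 1, and it became 0 on the deposited scale, with totals without ribosomal RNA-like rows, with no filter or a filter at 200 (0 also with the scaling kept), with no trend or robust moderation, and with only the 2 groups compared. Leaving out 1 library gave 0 to 1. With the mean over all rows of a gene, the pause-region counts were 2, 2 and 1. The cause was not tested. Over all genes, gene-body calls with MEK inhibition were 2802 against chronic and 4118 against acute. With no filter and its own scaling they were 1637 and 2642, and with no filter and the scaling kept 2228 and 3315. In the pause region they were 823 in chronic against acute, 494 with no filter (501 with the scaling kept), 455 with a filter at 200 (448), 1723 with library totals and 545 without acute replicate 1. They were 230 in MEK-inhibited against chronic, 107 with no filter (106), 110 with no trend or robust moderation and as few as 109 with 1 library left out, and 457 in MEK-inhibited against acute, 206 (209), 232 and 233 likewise, and 299 with a filter at 200 and the scaling kept. Pausing calls over all genes, 0 in each comparison, reached at most 27 (no filter, scaling kept, chronic against acute), none of them a member. With the replicate block, the counts of members called in the gene body stayed at 6, 4 and 2, and no member call changed. The deviations of same-numbered libraries correlated from -0.533 to 0.0979, below the 0.1 set for pairing. Those of differently numbered libraries of unlike groups correlated from -0.367 (acute replicate 3 and MEK-inhibited replicate 1) to 0.513 (acute replicate 2 and MEK-inhibited replicate 1). The model held no term for such shared deviations. For acute and chronic libraries alone, the 3 same-numbered pairs lay between 0.0747 and 0.0979 and the 6 others between -0.0766 and -0.0119, a hint from the data and not from the design. Depth in reads is unknown, so no counting interval can be given.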
